A study of Sus scrofa with 6 samples.

Results

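Clathrin forms the coat of the vesicles through which cells take up receptors and nutrients, and 10 genes of this machinery were looked for in scrapings of the uterine mucosa of the sow. They are the clathrin chains CLTC, CLTA and CLTB, and the adaptors and partners PICALM, EPS15, RABEP1, VPS4B, AP2M1, DAB2 and HIP1. All probe sets whose only gene symbol in the array annotation is that of a member were taken, which gave 13 probe sets of 6 genes out of 23999 tested probe sets and 6765 named genes. EPS15, RABEP1, VPS4B and HIP1 are not named in that annotation. The members were selected on the same contrast that is described here, the difference in signal between horns with embryos and horns with oocytes, since the list of altered transcripts in the study holds a probe set of CLTC and one of PICALM, and also probe sets that it assigns to RABEP1, VPS4B and EPS15. Differences between the groups are therefore given as a description of these arrays.

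Clathrin heavy chains, each with a bound light chain, join as the legs of the triskelion, and triskelia polymerize into a lattice on the membrane. The lattice does not touch the membrane itself, and adaptors such as the AP2 complex, PICALM and DAB2 bind phosphoinositide lipids, cargo and clathrin. After scission the coat is removed by the chaperone HSPA8, and the vesicle fuses with early endosomes, from which the ESCRT machinery sorts receptors towards the lysosome. In epithelia this route takes up proteins from the lumen and turns over receptors at the cell surface.

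The samples were scraped from the mucosal layer of the horn next to the utero-tubal junction of 3 crossbred Landrace x Large White sows on day 6 after laparoscopic insemination. In each sow the oviduct of one side had received spermatozoa and its uterine horn held embryos at the blastocyst stage, while the oviduct of the other side had received diluent alone and its horn held oocytes. Both groups thus came from the same anaesthetized and operated animals, and each has 3 Affymetrix porcine arrays, 1 for each sow. In such scrapings a lower number of cells of a type and less RNA per cell cannot be told apart. Signals are on a linear scale in arbitrary units as deposited, and log2 differences are those of normalized values, with a negative value for a lower level in the presence of embryos. Their standard errors and intervals come from a fit without the sow unless stated, so they also hold the spread among sows.

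The scraped material carried epithelial markers in every sample, with signals from 2014 to 2328 for the adhesion molecule EPCAM and from 712 to 876 for the keratin KRT18. Others varied more among sows. CLDN3 ran from 144 to 295, highest in sow 1, and KRT8 from 2128 to 3592, lowest in sow 1. Among the epithelial markers CLDN10 varied most, with 978, 298 and 409.5 with oocytes and 871, 208 and 367 with embryos. It was lower with embryos in each sow. The epithelial markers MUC1, from 20.4 to 34.9, and ELF3, from 38.3 to 74.3, were dimmer. Stromal markers were present too. The summed signal of 8 measured of 10 stromal markers ran from 4174 to 8288 with oocytes and from 4138 to 7825 with embryos, and it was highest in sow 1 in both groups. That of 6 measured of 7 smooth muscle markers ran from 564.5 to 2276 and from 684.1 to 1555, again highest in sow 1, while 11 of 12 epithelial markers summed to between 9743 and 11590 with oocytes and to between 9380 and 12010 with embryos, lowest in sow 1. Leukocyte markers were dim, with 9 of 12 measured and sums from 136 to 257.6 with oocytes and from 163.5 to 227.8 with embryos. No marker used had a signal of 0. For GAPDH, a control transcript read at both ends, the 5′ signal over the 3′ signal is a sign of how intact the copied RNA was, and it came to 0.355, 0.200 and 0.226 with oocytes in sows 1, 2 and 3 and 0.243, 0.130 and 0.199 with embryos, lower with embryos in each sow. Its part in the differences below was not tested.

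CLTC, the clathrin heavy chain that forms the legs of the triskelion, was read by 2 probe sets that gave different pictures. The brightest had signals of 1357, 1257 and 1260.0 with oocytes in sows 1, 2 and 3 and of 1336, 1283 and 1271 with embryos. These 6 values lay close together and the groups overlapped, with a log2 difference of 0.01 (standard error 0.10, 95% interval from -0.23 to 0.25). The other is the one in the list of the study and had signals of 408, 224 and 208 with oocytes and of 244, 102 and 147 with embryos. It was lower with embryos in every sow, at 0.598, 0.455 and 0.705 of the oocyte horn, yet the groups overlapped because sow 1 was high in both horns. Its log2 difference was -0.80 (standard error 0.36, which became 0.12 once the sow was in the fit), and it was -0.48 without the oocyte array of sow 1, -0.49 without the embryo array of sow 2 and -1.14 without the embryo array of sow 1. The mean of both CLTC probe sets gave a log2 difference of -0.40, in place of 0.01 for the brightest.

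CLTA, the light chain that binds the heavy chain near the hub, was the steadiest member at its brightest probe set. This probe set had signals of 1065, 1058 and 1033 with oocytes and of 1056, 1062 and 1027 with embryos, and its log2 difference was 0.00 (standard error 0.10, 95% interval from -0.23 to 0.22). The second had 53.4, 57.1 and 62.0 with oocytes and 76.7, 68.3 and 70.4 with embryos. All its embryo values lay above all its oocyte values, with a log2 difference of 0.32 (standard error 0.18). The dimmest went the other way, with 15.0, 15.0 and 13.4 against 14, 8.30 and 12.1 and a log2 difference of -0.39 (standard error 0.38). The 3 probe sets of CLTA therefore did not share a direction.

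CLTB, the second light chain gene, was represented by a single dim probe set, which stood at the 22.2 percentile of mean signal on the array. Its signals were 2.40, 7.0 and 4.30 with oocytes and 11.8, 6.80 and 9.70 with embryos. Sow 1 and sow 3 were higher with embryos, whereas the horns of sow 2 were nearly level. The log2 difference of 1.12 (standard error 0.59) was the largest among the members, and it was 0.66 without the oocyte array of sow 1 and 0.18 when 32 was added to each signal before the logarithm. At so low a signal this value is not a measure of CLTB that can be set beside those of the bright probe sets.

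**Figure D1:**
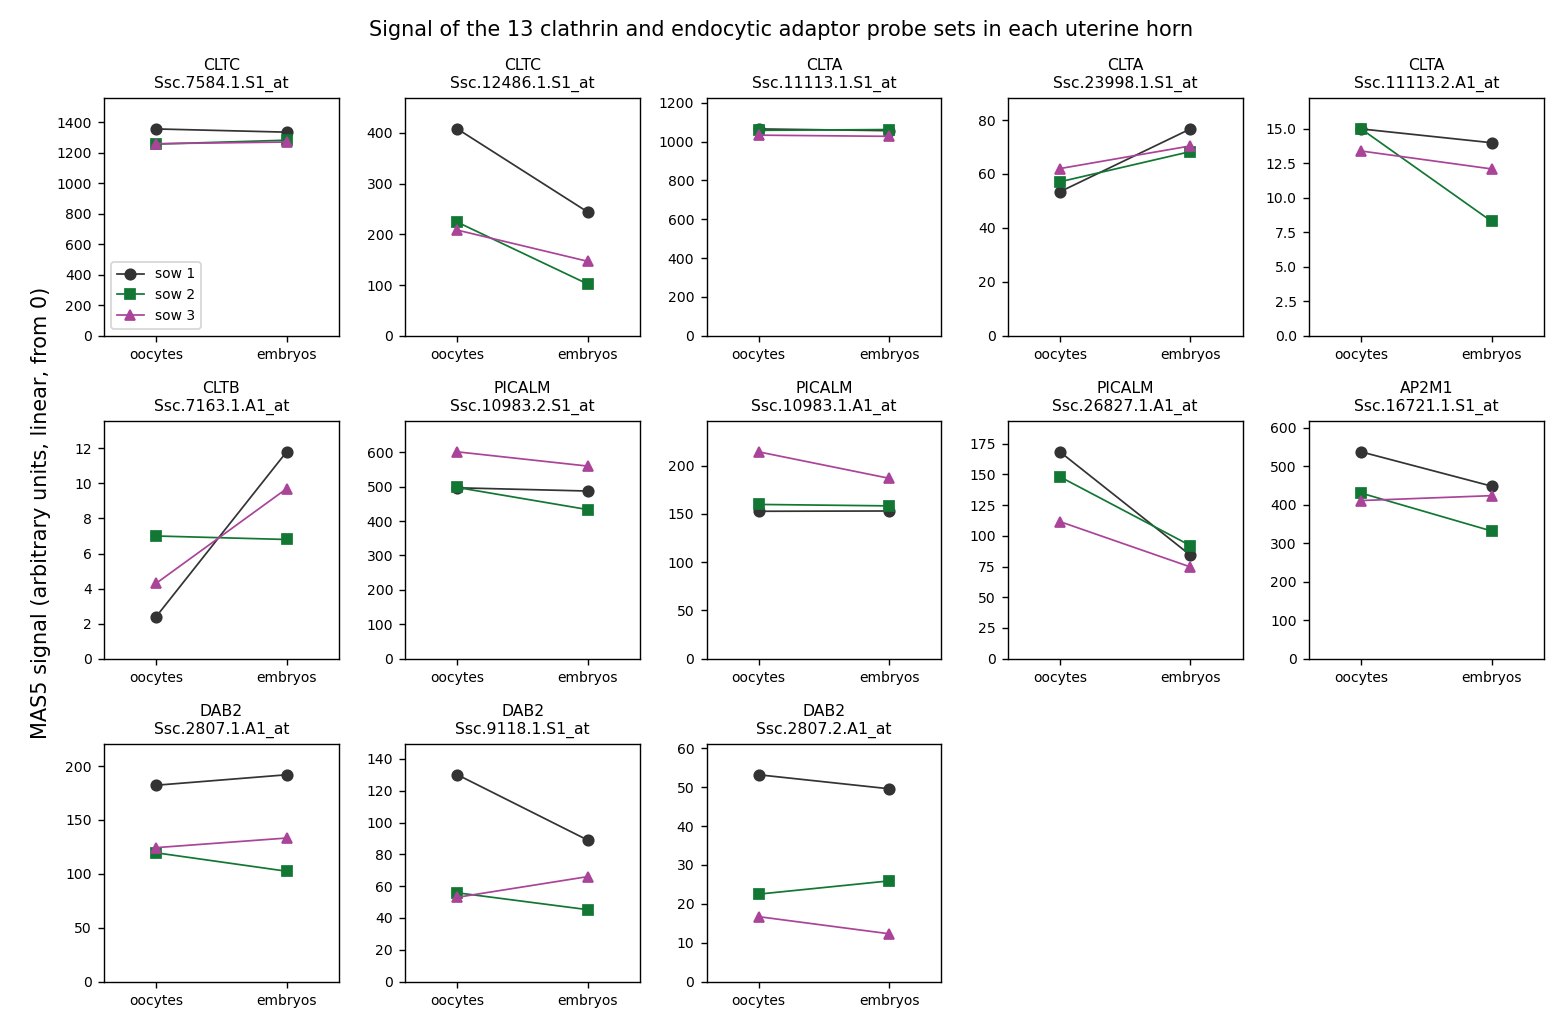
MAS5 signal (y axis, arbitrary units, linear, from 0) with oocytes and with embryos for the 13 probe sets, each symbol and line being 1 sow. The brightest probe sets of CLTC and CLTA are level between the horns, the listed probe sets of CLTC (408, 224 and 208 with oocytes) and PICALM fall with embryos in each sow, and DAB2 is highest in sow 1 in both horns.

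PICALM, which binds phosphoinositides and clathrin and shapes the size of the coat, had 3 probe sets, and all were lower with embryos by their normalized values in each sow. The listed probe set had signals of 168, 148 and 112 with oocytes and of 84.3, 92.1 and 74.7 with embryos. The groups did not overlap, and the embryo horns stood at 0.501, 0.622 and 0.669 of the oocyte horns of the same sows. The log2 difference was -0.76 (standard error 0.20). The brightest PICALM probe set had 497, 498 and 601 with oocytes and 487, 433 and 559.9 with embryos, a log2 difference of -0.11 (standard error 0.14). The second had 153, 159.9 and 214 and then 153, 158 and 187, a log2 difference of -0.07 (standard error 0.17). In both of these the groups overlapped, and sow 3 was the highest sow, whereas sow 3 was the lowest at the listed probe set. The probe sets of PICALM thus shared a sign but not a size, and their mean gave -0.32 in place of -0.11 for the brightest.

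AP2M1 encodes the mu subunit of the AP2 complex, which recognizes tyrosine-based sorting signals in the tails of receptors. Its probe set had signals of 537, 429.8 and 411 with oocytes and of 448, 332 and 423 with embryos. Sows 1 and 2 were lower with embryos and sow 3 was not, the groups overlapped, and the log2 difference was -0.20 (standard error 0.17). It was -0.06 without the oocyte array of sow 1 or without the embryo array of sow 2. Of the other AP2 subunits, looked at after the members, AP2B1 and AP2S1 were named on the array. The log2 differences of AP2B1, the beta subunit that binds clathrin, were -0.05 and 0.08 at its 2 probe sets, and those of AP2S1, the small subunit, were -0.02, -0.12 and -0.34 at its 3.

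DAB2, an adaptor that binds cargo receptors, AP2 and clathrin in coated pits, had 3 probe sets in which the sows stood farther apart than the horns of a sow. The brightest had signals of 182, 119.5 and 124 with oocytes and of 192, 102 and 133 with embryos. The second had 130.0, 55.8 and 53 and then 88.9, 45.2 and 66.0. Sow 1 was the highest in both horns, and the groups overlapped in all 3 probe sets. The dimmest had 53.2, 22.5 and 16.7 and then 49.6, 25.9 and 12.3. The log2 differences between embryos and oocytes were -0.02, -0.18 and -0.13, with standard errors of 0.26, 0.37 and 0.56. These errors became 0.11, 0.18 and 0.28 once the sow was in the fit. All 3 differences were above 0 without the oocyte array of sow 1.

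**Figure D2:**
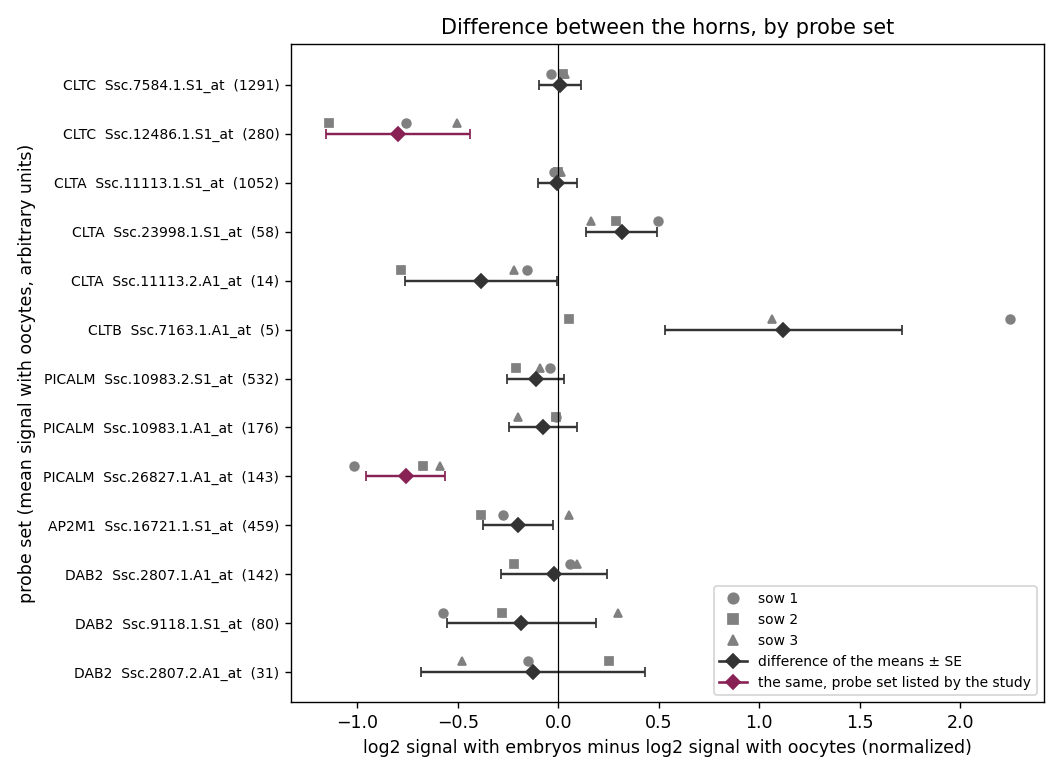
Log2 signal with embryos minus log2 signal with oocytes (x axis, normalized values) for each probe set, with its mean oocyte signal in parentheses. Diamonds are the differences of the group means ± 1 standard error, grey symbols are the 3 sows, and the probe sets in the list of the study lie at -0.80 (CLTC) and -0.76 (PICALM) while the brightest probe sets of these genes lie at 0.01 and -0.11.

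With limma 0 of the 13 probe sets passed an adjusted p of 0.05 for embryos against oocytes, as did 0 (0%) of the 23999 on the array, whether or not the sow was in the fit. At an unadjusted p under 0.05 there was 1 member (the listed PICALM probe set), against 2.88% of the array, and a fit with the sow gave 2 (the listed probe sets of CLTC and PICALM), against 8.7%. By their means 10 of the 13 were lower with embryos (9 after quantile normalization or median scaling, and 6 without the oocyte array of sow 1), against 49.2% of the array, with a median log2 difference of -0.11 where the median over all probe sets was 0.01. By normalized values 5 of the 13 were lower in all 3 sows (14.8% of the array) and 2 were higher in all 3 (14.9%), of which CLTB was not higher in sow 2 as deposited. In the normalized values the groups did not overlap in 4, of which 2 lay below (3.98% of the array) and 2 above (4.03%), and as deposited the dimmest CLTA probe set and CLTB did overlap. Nothing can be read from these counts, because the contrast had been used to choose members. Among the 11 probe sets outside the list of the study 8 were lower, 3 were higher and the median log2 difference was -0.07. The median of the 13 was 0.02 without the oocyte array of sow 1, -0.01 without the embryo array of sow 2 and -0.26 without the embryo array of sow 1.

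Probe sets of RABEP1, VPS4B and EPS15 carry no symbol in the array annotation and were named through the list of altered transcripts. That of VPS4B, the ATPase that disassembles ESCRT filaments on endosomes, had signals of 474.5, 470.3 and 498 with oocytes and of 368, 337 and 393 with embryos. It was lower with embryos in each sow and its groups did not overlap (log2 difference -0.40, standard error 0.12). That of RABEP1, an effector of the early endosome GTPase RAB5, had 396.5, 302.0 and 239 and then 281, 251 and 195, with overlapping groups and a log2 difference of -0.36 (standard error 0.22). That of EPS15, a scaffold that gathers AP2 at forming pits, had 230.3, 277 and 311 and then 194, 219.6 and 296 (log2 difference -0.22, standard error 0.18). These values belong to probe sets that were chosen for this very difference. No second probe set is named for these genes, and whether probe sets without a symbol read them was not looked at.

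The difference among sows was then asked of the same probe sets. Each sow gave 1 horn to each group, so the sow means do not depend on the contrast by which members had been chosen. The test sets them against the spread between the horns of a sow, with 2 residual degrees of freedom for a probe set before moderation, and that spread also enters the contrast. The listed probe sets of CLTC and PICALM are therefore described without a test. Of the 11 others 3 passed an adjusted p of 0.05 in limma, against 11.3% of the array, and these were the 3 probe sets of DAB2, which read 1 gene. A fit kept to probe sets above the median signal dropped the dimmest probe sets of CLTA and DAB2 and that of CLTB. Of the others that it kept 2 passed, both of DAB2, against 26.5% of the probe sets kept. Sow 1 was the highest in all 3 probe sets of DAB2, as it was in 9 of the 13 members and in 36% of the array. For DAB2 the highest and lowest sow differed by 0.76, 1.03 and 1.73 on the log2 scale, with adjusted p of 0.0128, 0.0282 and 0.0238 by limma's F test. The brightest CLTC probe set had a range of 0.14 (adjusted p = 0.492), while the sows lay 1.10 apart at the listed one, again with sow 1 the highest. CLTA ranged over 0.08 at its brightest probe set (adjusted p = 0.808). AP2M1 ranged over 0.43 (adjusted p = 0.0875) and the brighter PICALM probe sets over 0.33 and 0.36 (adjusted p = 0.105 and 0.141), none of which passed.

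The calls among sows depended on the variance model and on sow 1, over the array as among the members. Without a trend of the variance on the mean signal 0 of the 11 passed, as did 0 of the array (2 of the 11 and 3709 of the array at an unadjusted p under 0.05), and the adjusted p for DAB2 was 0.266 to 0.333. Without the oocyte array of sow 1, which left 1 residual degree of freedom, none of the 11 passed in limma, against 5.49% of the array. At an unadjusted p under 0.05 there were 3, against 4475 of the array, and the adjusted p for DAB2 was 0.0870 to 0.369. Without the embryo array of sow 1 only the second probe set of DAB2 passed among the 11 (0.0476), against 5.69% of the array. Stromal markers moved with the same animal. In 6 of 8 measured stromal genes (11.3% of the array) the sows differed at an adjusted p of 0.05, and sow 1 was the highest in each of these 6. The matrix proteoglycan DCN, for example, had signals of 2437, 1217 and 1729 with oocytes and of 2312, 1185 and 1581 with embryos. Among 11 measured epithelial genes the sows differed in 6 (11.3% of the array), of which 2, CLDN3 and CLDN10, were highest in sow 1. The study names CLDN10 among its altered transcripts, a choice made on the contrast, so its call among sows does not count as a test. The 5′ over 3′ ratios of the control transcripts GAPDH, actin and EF1a were also highest in sow 1 in both groups, at 0.355 and 0.243 for GAPDH. The part of stromal cells or of RNA integrity in the DAB2 and CLTC values was not tested. AP2B1 was likewise highest in sow 1, with 1191, 629 and 602 with oocytes and 1058, 632 and 602 with embryos at the brighter of its probe sets (adjusted p = 0.000342) and an adjusted p of 0.00540 at the other. It was singled out after its values had been seen. The brightest AP2S1 probe set had a range of 0.08 (adjusted p = 0.851), and the sows differed at the second (range 0.50, adjusted p = 0.0449) but did not pass at the third (adjusted p = 0.174).

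**Figure D3:**
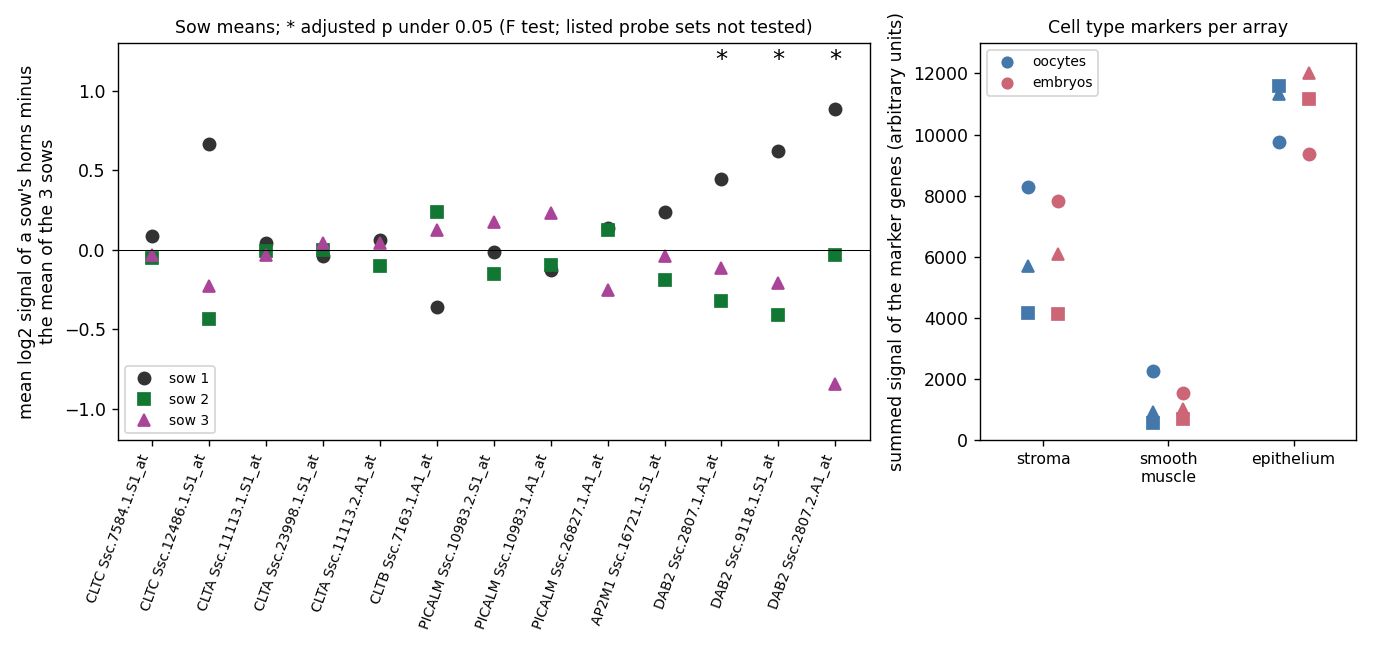
Left, mean log2 signal of both horns of a sow minus the mean of the 3 sows for the 13 probe sets, with an asterisk where the sows differed at an adjusted p under 0.05 (the listed probe sets of CLTC and PICALM carry no test). Right, summed signal (arbitrary units) of stromal, smooth muscle and epithelial marker genes on each array. Sow 1 (circles) is the highest at DAB2 and at the listed CLTC probe set and also in stromal and smooth muscle markers, where its stromal sums are 8288 and 7825.

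Other genes of endocytosis were taken from lists on the pathway, each gene at its brightest probe set. In none of the 7 lists did a gene pass the adjusted threshold in either direction for embryos against oocytes, with limma, and 1 of the 75 measured genes had an unadjusted p under 0.05 (2.88% of the array), or 6 with the sow in the fit (8.7% of the array). Of the AP2 and AP1 subunits 5 of 11 were measured, with 3 lower and 2 higher by the mean and a median log2 difference of -0.02. Other clathrin adaptors and scaffolds had 12 of 28 measured, 6 lower and 6 higher (median -0.02), and among them HIP1R, a relative of HIP1 that links coats to actin, was dim at 18.4 ± 14.1 (SD, n = 3) with oocytes and 25.6 ± 17.0 with embryos. Genes of scission and uncoating had 9 of 17 measured, 4 lower and 5 higher (median 0.07). The uncoating chaperone HSPA8 had 3153 ± 29.9 with oocytes and 3399 ± 217 with embryos (log2 difference 0.11, standard error 0.10), and SH3GLB1, an endophilin, had 488 ± 57.3 and 408 ± 50.2 (log2 difference -0.26, standard error 0.14).

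Further along the route, 14 of 25 endosome genes were measured, with 9 lower and 5 higher (median log2 difference -0.04), and RAB7A, the GTPase of late endosomes, had 604 ± 82.8 (SD, n = 3) with oocytes and 688 ± 116 with embryos. Of the ESCRT genes 16 of 26 were measured, 8 lower and 8 higher (median 0.01, range from -0.16 to 0.36), and PDCD6IP, an ESCRT partner also called ALIX, had 435 ± 52.3 and 393 ± 16.8. Endocytosed receptors had 14 of 19 measured, 8 lower and 6 higher (median -0.06). They spread more widely, from -1.03 to 0.61. The lowest was the transferrin receptor TFRC, the classical cargo of clathrin, with signals of 96.9, 51.3 and 39.1 with oocytes and of 28.1, 24.2 and 34.2 with embryos. Its embryo signals lay near the array medians, which ran from 30.6 to 35.8. The log2 difference of TFRC was -1.03 (standard error 0.34, 95% interval from -1.79 to -0.26), with -1.82, -1.04 and -0.22 in sows 1, 2 and 3. Each embryo horn lay below the oocyte horn of its sow, the groups did not overlap, and it was the gene with an unadjusted p under 0.05 in the fit that leaves out the sow. SH3GLB1, RAB7A, LRP6, CAV1 and CAV2 joined it once the sow was in the fit. The study names CAV2 among its altered transcripts, a choice made on this same contrast. The cation-independent mannose 6-phosphate receptor IGF2R was higher by its mean, at 17.3 ± 6.15 and 25.9 ± 5.29. Genes of caveolae and flotillins, which serve uptake without clathrin, had 5 of 11 measured, 1 lower and 4 higher (median 0.12). At CAV1 and CAVIN2 the sows differed at the adjusted threshold (11.3% of the array), with sow 1 the highest (36% of the array). CAV2 is left without a test among sows, as are the listed probe sets of CLTC and PICALM. CAV1, the main caveolar coat protein, was one of these, with 644 and 673 in the horns of sow 1 against 273 to 605 in the others (adjusted p = 0.000878 by limma's F test).

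**Figure D4:**
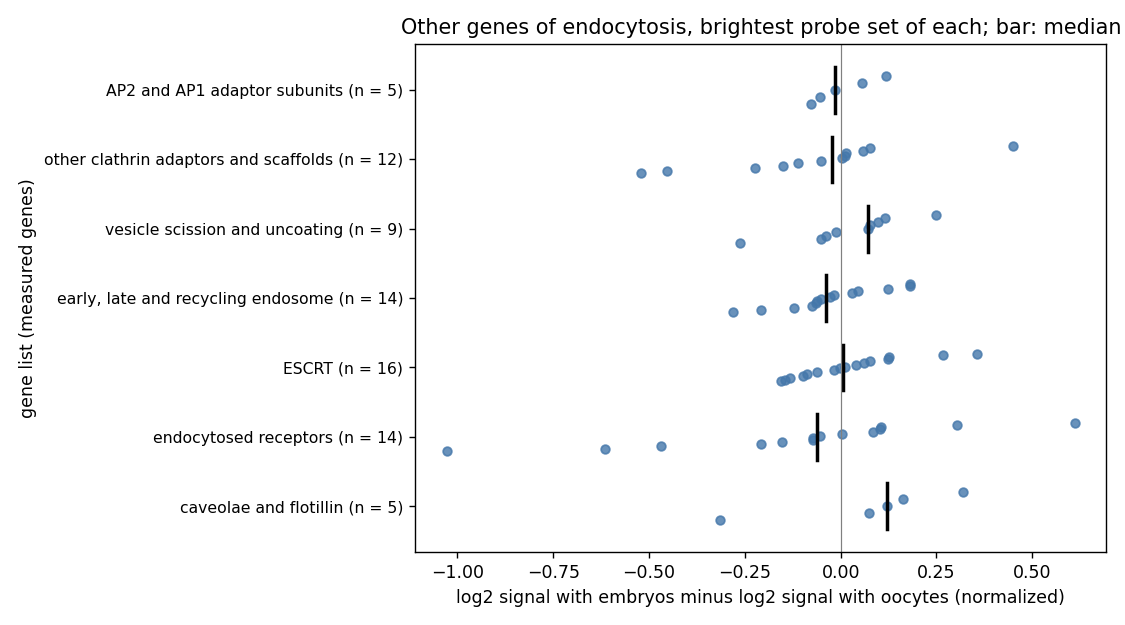
Log2 signal with embryos minus log2 signal with oocytes (x axis, normalized values) for the other measured genes of endocytosis, 1 point for each gene at its brightest probe set, with a black bar at the median of each list. The medians lie between -0.06 and 0.12, and TFRC, at -1.03, is the lowest point.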

How the data were processed

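RNA of 6 uterine horn scrapings was hybridized to Affymetrix porcine arrays, 3 with embryos and 3 with oocytes. The authors deposited intensity signals per probe set made with MAS5 5.1, on a linear scale, with the mean of each array after trimming 2% at each end at 100.02. The Lowess step of the methods was not seen in them, and detection calls were not used here. Median signals ran from 30.6 to 35.8. Arrays have no sequencing depth, and the 3 arrays per group limit the precision.

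Signals under 0.1 were set to 0.1, put on a log2 scale and normalized by cyclic loess. After 124 control probe sets were removed, 23999 were fitted with limma 3.58.1 in R 4.3.3 (group, variance trend, Benjamini-Hochberg at 0.05), and figures drawn with matplotlib 3.10.9 in Python 3.11.15. Differences among sows came from a moderated F test in a fit with group and sow. The code was tested on simulated data.

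The arrays of equal number were taken as the horns of 1 sow, since the ratios per animal in the methods equal those of same-numbered arrays. Their deviations from the group means correlated at 0.207, 0.173 and 0.100. Symbols are those of the array annotation (10069 probe sets with 1 symbol, 198 with several, 13732 with none), and all 13 member probe sets had the same symbol in the current table. Every member probe set was described. Of the other lists only genes among the 3 with the smallest p were to be named, with TFRC, and not all of these are. LRP6, the AP2 subunits and the cell type markers given with values were chosen after their values were seen. One gene that this rule covers is not reported here. Members and lists were chosen with earlier results of these data known. Coordinates are not printed, as the build behind the array was not given in the sources used here.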

Additional observations from a re-analysis of the deposited data

How the results depend on the processing

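The fits were repeated on the deposited values without further normalization, after quantile normalization or median scaling, with 32 added before the logarithm, on the brighter part of the array (above the median signal), without the variance trend, with the sow as a replicate block, with the probe sets of a gene averaged, and without each array. Averaging was run on the member genes alone. Embryos against oocytes gave 0 calls on the array under each of the others, where 232 (above the median signal) to 2088 probe sets had an unadjusted p under 0.05. The replicate block gave 2088 of these, a smallest adjusted p of 0.0810 and no changed call. Probe sets that differed among sows numbered 2707 (4 of them members, counting the listed CLTC probe set), 0 (0 members) without the variance trend, and from 1317 to 3638 (1 to 5 members) when arrays were left out, where 1 residual degree of freedom remains. Above the median signal 10 members were left, of which 3 passed, against 26.5% of the probe sets kept. No member changed sign with the deposited values, 32 added, no trend, the block or the filter, the brightest CLTA probe set, at 0.00, did with quantile normalization or median scaling, and 1 to 4 did when an array was left out. The listed probe sets of CLTC and PICALM stayed between -1.14 and -0.48 and between -0.93 and -0.60. Arrays carry no depth, and signals as dim as those of CLTB cannot be ordered.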
